A study of Mus musculus with 4 samples.

Results

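The genes described here build the machinery by which a cell fuses vesicles with its plasma membrane and releases their content. They number 49 of the 55421 genes in the count files and were found by gene symbol: vesicle proteins, synaptotagmins, SNARE proteins and their regulators, Rab3 GTPases and active zone proteins. RNA was measured in astrocytes, the supporting glia of the brain, obtained in culture by differentiating neural stem cells of the C57BL/6J mouse strain in medium with serum. The cells carried a lentivirus with an shRNA against Phf8 (2 libraries) or with a control shRNA (2 libraries), an shRNA being a hairpin that the cell turns into a small RNA directing loss of its target transcript. Both groups were therefore infected cultures, and no uninfected cells entered the comparison. The 2 samples of a group are named biological replicates, but no source used here tells if each was a culture of its own. All p-values below thus speak of the variation among these 4 libraries, part of which may be technical.

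In regulated exocytosis, a vesicle SNARE of the VAMP family pairs with target membrane SNAREs of the syntaxin and SNAP families, and the zippering of this bundle drives the membranes together. Synaptotagmins carry C2 domains that, in many family members, bind calcium and set off fusion, while complexins, Munc13 and RIM proteins prepare vesicles and Rab3 proteins bring them to the membrane. Neurons use one set of isoforms (Stx1a, Snap25, Vamp2, Syt1) at synapses, and broadly expressed relatives (Stx3, Stx4a, Snap23, Vamp3) serve traffic to the surface in most cells, astrocytes included.

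Phf8, the histone demethylase gene that was targeted, had 44.3 and 42.3 CPM in the Phf8 shRNA libraries, against 53.3 and 53.0 CPM in the control shRNA libraries, which is 18.5% less transcript. Its log2 fold change was -0.296, and the median absolute log2 fold change over all genes tested was 0.320. CPM are reads per 1000000 reads of a library, with library sizes scaled by edgeR's TMM factors, and total reads ran from 36839530 to 44724759 per library. Astrocyte genes were abundant in all libraries, among them Gfap, the astrocytic filament gene (1319 and 1024 CPM in Phf8 shRNA, 4079 and 3863 CPM in control shRNA libraries), and Slc1a3, a glutamate transporter gene (1924 and 1804 CPM, against 1805 and 1821 CPM in control). Cdh5 of endothelium and C1qa of microglia had 0 reads in every library.

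Most of the exocytosis genes rose with Phf8 shRNA. After low counts were filtered, 48 of the 49 could be tested. Among them, 29 rose, 10 fell and 9 did not pass the test (edgeR's quasi-likelihood test, Benjamini-Hochberg adjusted p under 0.05 over all 21042 genes tested). Over all genes tested, 24.8% rose and 27.3% fell, and 52.1% were called in either direction. The shares among the exocytosis genes were 60.4% higher and 20.8% lower, with a median log2 fold change of 0.34, against a median of 0.01 over all genes tested. Among the 42 exocytosis genes with at least 1 CPM in 2 libraries, 27 rose and 10 fell, beside 30.1% and 31.9% of all genes tested with that minimum. Scaling by the upper quartile moved the background to 31.6% higher and 22.9% lower and kept 29 higher and 10 lower exocytosis genes. Rises of at least 2-fold were called for 6 exocytosis genes and falls of that size for 2, beside 5.5% and 8.71% of all genes tested. Sv2b and Cadps2, among these 6, would not have passed the low-count filter on their control shRNA libraries alone. They could thus be called only as higher. Both Phf8 shRNA libraries lay above both control shRNA libraries for 29 exocytosis genes and below them for 14, beside 37.2% and 36.7% of all genes tested. DESeq2 called 23 exocytosis genes higher and 10 lower, beside 13.9% and 19.1% of the genes it tested. With the coefficient of variation between replicates set to 0.2, which was decided with the results in view, 10 were higher and 2 lower, beside 6% and 9.71% of all genes tested.

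The remaining gene, Vamp7, a vesicle SNARE gene of the endosomal and lysosomal pathway, was listed on an unplaced scaffold with 0 reads in every library. All 86 genes listed on such scaffolds had 0 reads, so the files give no level for it.

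The lists of cell type markers differed in direction. Of 15 neuron markers, 9 passed the filter, of which 8 rose and 0 fell, and the summed level of the list was 1838 to 1846 CPM in Phf8 shRNA and 1132 to 1173 CPM in control shRNA libraries. Nefm, among the 8, passed the filter only through its Phf8 shRNA libraries (22 and 28 reads, against 7 and 7 in control) and could thus be called only as higher. The neuron markers differed widely in level. Map2, a dendritic cytoskeleton gene, had 1390 and 1379 CPM in Phf8 shRNA and 902 and 936 CPM in control shRNA libraries, and Gad1, a GABA synthesis gene, had 101 and 105 CPM, against 42.0 and 41.2 CPM in control. Rbfox3, the gene of the nuclear antigen NeuN, had 9.41 and 10.6 CPM in Phf8 shRNA and 8.78 and 9.24 CPM in control shRNA libraries and did not pass (edgeR adjusted p = 0.185). Other markers of the list were at or near 0. Slc17a6 and Slc32a1, transporters that load glutamate and GABA into vesicles, had 0 reads in both Phf8 shRNA libraries, and in control shRNA libraries they reached 0.0489 and 0.0244 CPM at most. Slc17a7 had 0.116 and 0.0545 CPM in Phf8 shRNA libraries and 0 in both control shRNA libraries. Stmn2, Nefl and Gad2 stayed at or under 0.301 CPM in all libraries. Of 14 oligodendrocyte lineage markers, 13 passed the filter, of which 12 rose and 0 fell, with summed levels of 1344 to 1400 CPM in Phf8 shRNA and 782 to 827 CPM in control shRNA libraries. Mag, among the 12, would not have passed the filter on its control shRNA libraries alone. The astrocyte list, at 6290 to 7036 CPM in Phf8 shRNA and 9883 to 10166 CPM in control shRNA libraries, had 2 of 10 genes higher and 7 lower. Of these sums, Gfap made up 1319 and 1024 CPM in Phf8 shRNA and 4079 and 3863 CPM in control shRNA libraries. The 2 higher genes were Slc1a2 and Gja1. Slc1a2, a glutamate transporter gene, had 968 and 982 CPM in Phf8 shRNA libraries, against 136 and 135 CPM in control shRNA libraries, and Gja1 rose 1.27-fold. The 11 markers of endothelium and mural cells included 9 that could be tested. Of these 1, Pdgfrb, rose and 5 fell, each of the 5 by at least 2-fold, and the list's median was -2.37 on the log2 scale. Kcnj8 and Abcc9, among the 5, would not have passed the filter on their Phf8 shRNA libraries alone. The mural gene Acta2 had 0.301 and 0.572 CPM in Phf8 shRNA and 9.32 and 8.31 CPM in control shRNA libraries. Of 10 microglia markers, 5 passed the filter, of which 2 fell and 0 rose, and Cd68 had 2.61 and 2.37 CPM in Phf8 shRNA and 5.25 and 5.84 CPM in control shRNA libraries. In bulk RNA, fewer cells of a type and less RNA per cell cannot be told apart, and the part of these cell types in the results was not tested.

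**Figure D1:**
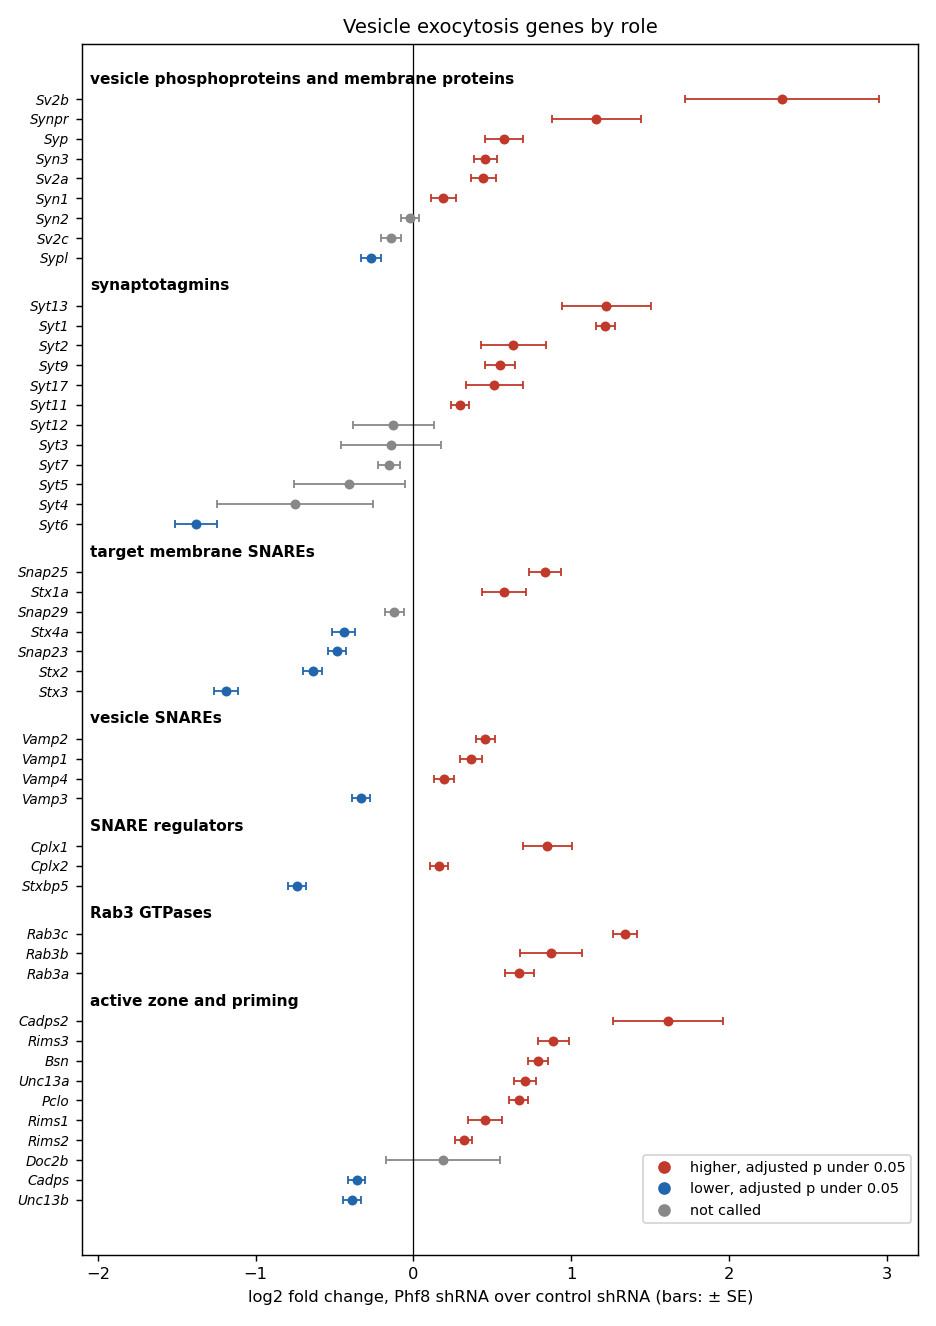
Log2 fold change of Phf8 shRNA over control shRNA for the 48 exocytosis genes tested, grouped by role, with bars of ± SE and colours for the call at an adjusted p under 0.05. Rab3a, Rab3b and Rab3c lie right of 0, while Stx2, Stx3, Stx4a, Snap23 and Vamp3 lie left of it and Snap25, Stx1a, Vamp1, Vamp2 and Vamp4 right of it.

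The proteins that coat or span the vesicle differed from each other in the size and direction of change. Of 9 genes of this kind, 6 rose, 1 fell and 2 did not pass. Synpr, a relative of synaptophysin, had 1.249 and 1.253 CPM in Phf8 shRNA libraries, against 0.555 and 0.562 CPM in control shRNA libraries. The groups were well apart at this low level, with a log2 fold change of 1.16 ± 0.28 (SE; edgeR adjusted p = 1.19e-04). Sv2b, a vesicle glycoprotein gene, had 16 and 9 reads in Phf8 shRNA and 3 and 2 reads in control shRNA libraries. The depth-adjusted ratio of these reads was 5.26 (95% exact counting interval 1.98 to 17.6), the call was lost with DESeq2 (adjusted p = 0.0843), and without Phf8 shRNA replicate 1 the gene did not pass the filter. The interval covers counting error only, and the gene is close to silent in both groups.

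The synapsins, phosphoproteins that tether vesicles in a reserve pool, differed among themselves. Syn2, the most abundant of them per exonic length, had 91.5 and 90.4 CPM in Phf8 shRNA and 94.5 and 90.0 CPM in control shRNA libraries and did not pass the test. Syn3 rose 1.37-fold, with 22.5 and 27.1 CPM in Phf8 shRNA libraries, against 18.08 and 18.02 CPM in control. Exons of Syn3 overlap Timp3 on the opposite strand over 14.1% of their length. No source used here states whether reads were counted by strand, which leaves the level of Syn3 uncertain, and Timp3 itself moved the other way (219 CPM in Phf8 shRNA and 651 CPM in control shRNA libraries, log2 fold change -1.57). Syn1 rose 1.14-fold, a call that was lost without any one of the 4 libraries (log2 fold change 0.16 to 0.21, edgeR adjusted p = 0.0673 to 0.194), with DESeq2 (adjusted p = 0.261), with the library size alone (0.152) and with no low-count filter (0.0906).

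Of the other vesicle membrane genes, Syp (synaptophysin) rose 1.49-fold and Sv2a rose 1.36-fold, Sypl, the broadly expressed relative of synaptophysin, fell 1.20-fold, and Sv2c had 32.8 and 29.9 CPM in Phf8 shRNA and 34.1 and 35.0 CPM in control shRNA libraries without passing (adjusted p = 0.0506). Sv2c passed as lower without Phf8 shRNA replicate 1 (log2 fold change -0.21, edgeR adjusted p = 0.0156), with the library size alone (-0.19, 0.00548) and without mitochondrial and the 20 most abundant genes (-0.14, 0.0451). Exons of Syp overlap a predicted gene on the opposite strand over 16.8% of their length, but that gene had 0.0619 CPM in Phf8 shRNA and 0.128 CPM in control shRNA libraries.

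Of the 12 synaptotagmins, 6 rose, 1 fell and 5 did not pass. Syt1, the fast calcium sensor of synaptic vesicles, had 101 and 106 CPM in Phf8 shRNA libraries, against 44.6 and 44.5 CPM in control shRNA libraries. Both Phf8 shRNA libraries lay far above both controls (log2 fold change 1.22 ± 0.06 SE, edgeR adjusted p = 2.00e-97). Per exonic length, Syt1 was at rank 5 of the 49 genes in Phf8 shRNA and at rank 12 in control shRNA libraries. Syt2, a close relative of Syt1 used at fast synapses, had 1.83 and 2.18 CPM in Phf8 shRNA and 1.27 and 1.30 CPM in control shRNA libraries (log2 fold change 0.63 ± 0.21 SE, edgeR adjusted p = 0.00588). That call was lost without Phf8 shRNA replicate 2 (log2 fold change 0.51, edgeR adjusted p = 0.0663) and without control shRNA replicate 1 (0.61, 0.0572), and also with DESeq2 (adjusted p = 0.147). Syt9, the remaining fast sensor, rose 1.46-fold.

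Syt13, whose product is not known to bind calcium, had 1.20 and 1.31 CPM in Phf8 shRNA libraries, against 0.532 and 0.538 CPM in control shRNA libraries (log2 fold change 1.22 ± 0.28 SE, edgeR adjusted p = 5.50e-05). Syt6 went the other way. It had 2.47 and 2.94 CPM in Phf8 shRNA libraries, against 6.82 and 7.19 CPM in control shRNA libraries, a 2.60-fold fall (log2 fold change -1.38 ± 0.13 SE, edgeR adjusted p = 3.85e-24). In the fit of all 4 libraries it was the only synaptotagmin called lower, and the groups did not overlap. Syt11, which does not bind calcium through its C2 domains and is the most abundant gene of the set, rose 1.23-fold to 543 and 509 CPM in Phf8 shRNA libraries, against 429 and 427 CPM in control. Syt11 made up 83.7% and 82.4% of the summed synaptotagmin level per exonic length in Phf8 shRNA libraries, against 85.8% and 86.4% in control shRNA libraries. Syt17 rose 1.43-fold, a call lost without Phf8 shRNA replicate 1 (log2 fold change 0.33, edgeR adjusted p = 0.199) without control shRNA replicate 1 (0.45, 0.107) and with DESeq2 (0.50, 0.191).

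The synaptotagmins that did not pass were Syt7, the slow sensor with high calcium affinity (22.50 and 21.98 CPM in Phf8 shRNA, 25.47 and 23.98 CPM in control shRNA libraries, edgeR adjusted p = 0.0539), and 4 genes with means under 1.1 CPM in both groups, Syt3, Syt4, Syt5 and Syt12. Syt7 passed as lower with the library size alone (log2 fold change -0.21, edgeR adjusted p = 0.00952) and without mitochondrial and the 20 most abundant genes (-0.16, 0.0469). Control shRNA replicate 1 set the direction of Syt3 and Syt5. Syt5 had 0.486 and 0.381 CPM in Phf8 shRNA and 0.878 and 0.269 CPM in control shRNA libraries, and its log2 fold change ran from -0.999 without control shRNA replicate 2, where it passed as lower (edgeR adjusted p = 0.0415), to 0.68 without control shRNA replicate 1.

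**Figure D2:**
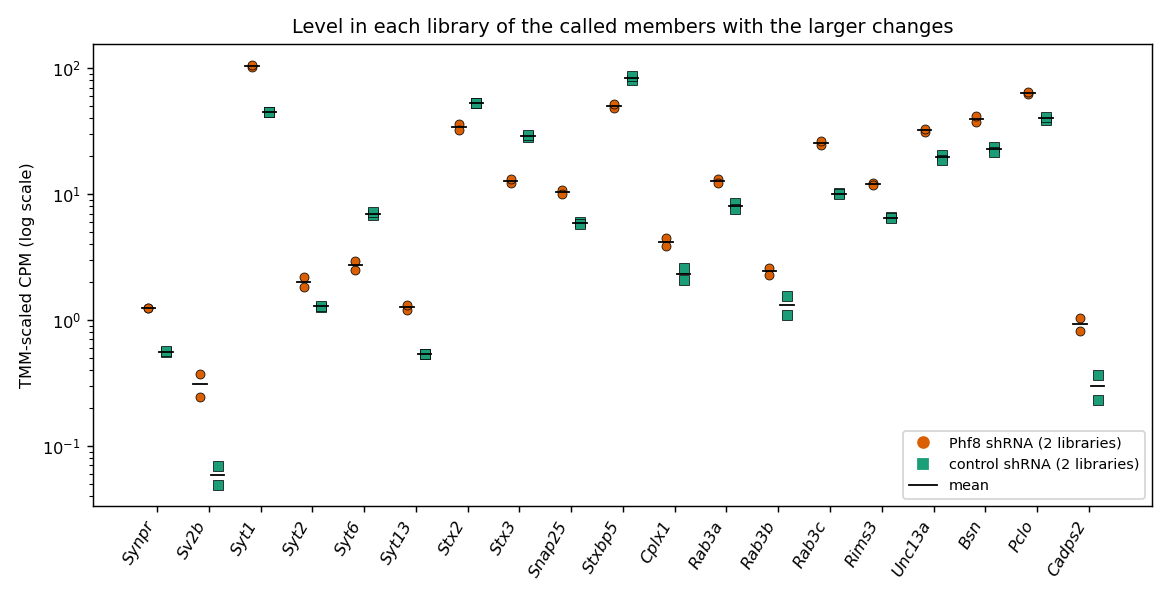
TMM-scaled CPM on a log axis in each of the 2 Phf8 shRNA and 2 control shRNA libraries, with the mean as a bar, for the 19 called exocytosis genes with an absolute log2 fold change of at least 0.58. Of these, 15 are higher and 4 (Syt6, Stx2, Stx3 and Stxbp5) lower with Phf8 shRNA. In none of them do the groups overlap, which follows largely from choosing genes by their call and size of change.

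The target membrane SNAREs split by isoform. Of 7 genes, 2 rose, 4 fell and 1, Snap29, did not pass. The pair that rose, Snap25 and Stx1a, is the one used at synapses. Snap25 had 10.8 and 10.1 CPM in Phf8 shRNA libraries, against 5.96 and 5.77 CPM in control shRNA libraries (log2 fold change 0.83 ± 0.10 SE, edgeR adjusted p = 1.76e-15). Stx1a, the syntaxin of synapses, rose 1.49-fold, with 4.63 and 5.42 CPM in Phf8 shRNA and 3.56 and 3.15 CPM in control shRNA libraries. The 4 genes that fell encode SNAREs of most cell types. Stx3, a syntaxin of apical and granule exocytosis, had 12.2 and 13.2 CPM in Phf8 shRNA libraries, against 28.6 and 29.2 CPM in control shRNA libraries, a 2.28-fold fall (log2 fold change -1.19 ± 0.07 SE, edgeR adjusted p = 1.31e-55). Stx2 had 35.8 and 32.1 CPM in Phf8 shRNA and 53.2 and 52.8 CPM in control shRNA libraries (log2 fold change -0.64 ± 0.06 SE, edgeR adjusted p = 1.98e-25). Snap23, the broadly expressed counterpart of Snap25, fell 1.40-fold and Stx4a, a partner of Snap23 at the plasma membrane, fell 1.36-fold. Snap29 passed as lower without Phf8 shRNA replicate 1 (log2 fold change -0.20, edgeR adjusted p = 0.0115) and with the library size alone (-0.18, 0.00705).

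Among the vesicle SNAREs, Vamp2, the synaptic form, rose 1.37-fold to 44.6 and 41.3 CPM in Phf8 shRNA libraries, against 31.6 and 31.0 CPM in control. Vamp1, its close relative, rose 1.29-fold. Vamp3 (cellubrevin), the form that astrocytes and most other cells use, fell 1.26-fold to 77.9 and 68.1 CPM in Phf8 shRNA libraries, against 91.9 and 92.3 CPM in control. Vamp3 was still the most abundant vesicle SNARE per exonic length in both groups. Vamp4, a SNARE of the Golgi and endosomes, rose 1.14-fold, a call lost without control shRNA replicate 1 (log2 fold change 0.16, edgeR adjusted p = 0.0722) and with DESeq2 (adjusted p = 0.0707).

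Ratios within a library do not depend on the scaling between libraries, and 8 pairs of related genes were set against each other per exonic length. The pairs were chosen after their values were seen and are given without a test. Snap25 stood at 0.134 and 0.136 of Snap23 in Phf8 shRNA libraries and at 0.0567 and 0.0517 of it in control shRNA libraries. Vamp2 stood at 0.434 and 0.460 of Vamp3 in Phf8 shRNA libraries, against 0.261 and 0.255 in control shRNA libraries. Stx1a stood at 0.813 and 0.877 of Stx3 in Phf8 shRNA libraries, against 0.267 and 0.231 in control shRNA libraries. In each of these pairs the broadly expressed SNARE remained the more abundant one in all libraries.

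**Figure D3:**
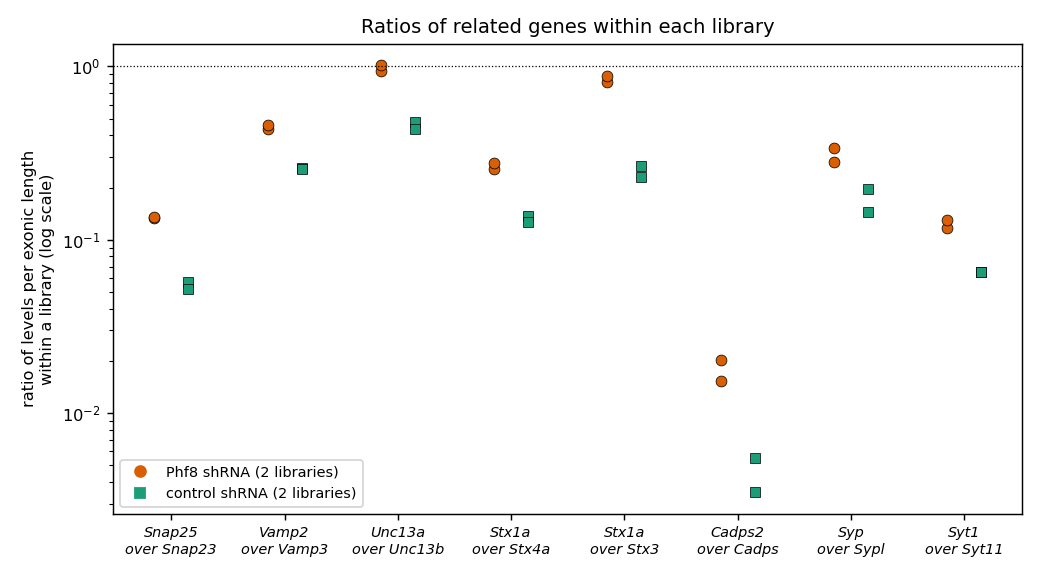
Ratio of the levels per exonic length of 2 related genes within each library, on a log axis, in 2 Phf8 shRNA and 2 control shRNA libraries. In the 8 pairs, chosen after their values were seen, the Phf8 shRNA libraries lie above the control shRNA libraries, and Unc13a over Unc13b reaches 0.939 and 1.01 in Phf8 shRNA libraries, against 0.477 and 0.434 in control.

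The regulators of SNARE assembly moved in both directions. Cplx1, a complexin gene whose product clamps and promotes fusion, had 4.46 and 3.90 CPM in Phf8 shRNA libraries, against 2.57 and 2.08 CPM in control shRNA libraries (log2 fold change 0.85 ± 0.15 SE, edgeR adjusted p = 1.87e-07). The more abundant complexin gene, Cplx2, rose 1.12-fold, and that call was lost without Phf8 shRNA replicate 1 (log2 fold change 0.11, edgeR adjusted p = 0.146), without control shRNA replicate 2 (0.13, 0.114) with the library size alone (0.11, 0.0602) and with DESeq2 (0.15, 0.0790). Stxbp5 encodes tomosyn, which occupies target membrane SNAREs and thereby inhibits fusion. It had 48.3 and 51.8 CPM in Phf8 shRNA libraries, against 80.8 and 85.9 CPM in control shRNA libraries (log2 fold change -0.74 ± 0.06 SE, edgeR adjusted p = 7.99e-37).

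Rab3a, Rab3b and Rab3c, which encode small GTPases of secretory vesicles, rose. Rab3c had 24.6 and 26.2 CPM in Phf8 shRNA libraries, against 10.1 and 9.92 CPM in control shRNA libraries (log2 fold change 1.34 ± 0.08 SE, edgeR adjusted p = 3.06e-63). Rab3a, the main form of synapses, had 13.2 and 12.3 CPM in Phf8 shRNA and 8.41 and 7.58 CPM in control shRNA libraries (log2 fold change 0.67 ± 0.09 SE, edgeR adjusted p = 1.56e-12). Rab3b had 2.59 and 2.26 CPM in Phf8 shRNA and 1.55 and 1.10 CPM in control shRNA libraries (log2 fold change 0.87 ± 0.20 SE, edgeR adjusted p = 3.66e-05). The summed level of Rab3a, Rab3b and Rab3c was 40.4 to 40.8 CPM in Phf8 shRNA and 18.6 to 20.1 CPM in control shRNA libraries.

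Of 10 genes of the active zone and of vesicle priming, 7 rose, 2 fell and 1, Doc2b, did not pass. The active zone is the release site of a presynaptic terminal, and Bsn (bassoon) and Pclo (piccolo) encode its giant scaffold proteins. Bsn had 37.3 and 41.5 CPM in Phf8 shRNA libraries, against 23.8 and 21.7 CPM in control shRNA libraries (log2 fold change 0.79 ± 0.06 SE, edgeR adjusted p = 5.08e-33). Pclo had 62.5 and 64.5 CPM in Phf8 shRNA libraries, against 38.9 and 41.1 CPM in control shRNA libraries (log2 fold change 0.67 ± 0.06 SE, edgeR adjusted p = 2.69e-29). For both scaffolds the lower Phf8 shRNA library stood well above the higher control. Of the RIM genes, Rims3 had 12.3 and 11.8 CPM in Phf8 shRNA libraries, against 6.59 and 6.43 CPM in control shRNA libraries (log2 fold change 0.89 ± 0.10 SE, edgeR adjusted p = 3.93e-19). Rims1 rose 1.37-fold and Rims2, the most abundant RIM gene per exonic length, rose by 0.32 on the log2 scale.

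The priming genes split by paralog. Unc13a, which encodes the Munc13 form of most synapses, had 31.4 and 32.8 CPM in Phf8 shRNA libraries, against 20.6 and 18.7 CPM in control shRNA libraries (log2 fold change 0.71 ± 0.07 SE, edgeR adjusted p = 3.71e-24). Unc13b, also expressed outside the brain, fell 1.31-fold to 60.2 and 58.3 CPM in Phf8 shRNA libraries, against 77.9 and 77.4 CPM in control. Cadps and Cadps2 encode the CAPS proteins that prime dense core vesicles. Cadps2 had 0.809 and 1.04 CPM in Phf8 shRNA libraries, against 0.231 and 0.367 CPM in control shRNA libraries (log2 fold change 1.61 ± 0.35 SE, edgeR adjusted p = 1.41e-05), which rests on 73 Phf8 shRNA and 25 control shRNA reads. The far more abundant Cadps fell 1.28-fold to 83.3 and 80.1 CPM in Phf8 shRNA libraries, against 105 CPM in both control shRNA libraries.

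Per exonic length (RPKM, scaled CPM per kilobase of exon), the exocytosis genes spanned a wide range. Syt11 led with 101 ± 4.65 RPKM in Phf8 shRNA and 82.3 ± 0.267 RPKM in control shRNA libraries (mean ± SD, n = 2 each). Vamp3 followed with 25.3 ± 2.41 RPKM in Phf8 shRNA and 31.9 ± 0.0785 RPKM in control shRNA libraries. In Phf8 shRNA libraries Cplx2 (17.1 ± 0.919 RPKM) and Syn2 (12.9 ± 0.111 RPKM) came next, and then Syt1 (12.4 ± 0.395 RPKM), Snap29 (11.7 ± 0.882 RPKM), Snap23 (11.4 ± 0.683 RPKM) and Vamp2 (11.3 ± 0.620 RPKM). From Syt1 to Vamp2, neighbours in this order differed by less than the larger of their SDs. In control shRNA libraries Snap23 ranked 3 at 16.0 ± 0.658 RPKM and Syt1 ranked 12 at 5.35 ± 0.00842 RPKM. At least 1 RPKM was reached by 35 of the 49 genes in Phf8 shRNA and by 31 in control shRNA libraries.

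Promoter stretches from RefSeq (build GRCm38.p6, the mm10 assembly) are shown for a few of these genes. Phf8 is known to bind promoters rich in the dinucleotide CG. No binding data were used here, and the part of such binding in the changes was not tested. Windows from 250 bases before to 50 after the start were found for 36 of the 49 genes. The number of CG dinucleotides in the window had a median of 19 among 23 genes that rose and 20 among 9 that fell. It was 24.5 among 4 that did not pass, and 7 over all 27025 genes of the promoter table, tested here or not. Both directions held windows rich in CG and windows near the median over all genes. As picked examples, Cadps2 (54 in the window) and Syt1 (8) rose, while Stxbp5 (47) and Stx3 (8) fell. The 120 bases before each of these starts are given 5′ to 3′ on the strand of the gene, which is the minus strand in all 4, with CG in capitals. They lie at chr6:23839422-23839541 (Cadps2), chr10:109010976-109011095 (Syt1), chr10:9901041-9901160 (Stxbp5) and chr19:11819404-11819523 (Stx3).
Cadps2: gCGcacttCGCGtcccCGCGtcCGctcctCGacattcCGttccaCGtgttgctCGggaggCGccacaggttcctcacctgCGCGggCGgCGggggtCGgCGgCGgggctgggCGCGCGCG
Syt1: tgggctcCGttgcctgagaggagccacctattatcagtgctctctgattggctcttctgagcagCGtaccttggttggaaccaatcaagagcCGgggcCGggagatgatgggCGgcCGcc
Stxbp5: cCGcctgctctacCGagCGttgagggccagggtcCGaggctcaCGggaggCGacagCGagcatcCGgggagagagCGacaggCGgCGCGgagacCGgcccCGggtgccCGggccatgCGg
Stx3: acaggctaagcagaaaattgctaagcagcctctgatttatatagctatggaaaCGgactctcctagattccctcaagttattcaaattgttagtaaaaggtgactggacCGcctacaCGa

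The windows were also searched on both strands for both parts of RE1, the element bound by REST, a repressor that keeps many synaptic genes silent outside neurons. The letters searched were TTCAGCACC and GGACAG, which do not overlap each other. The first was present in 2 of the 36 genes (5.56%), Syn1 and Unc13a, and in 0.433% of the genes of the promoter table. The second was present in 11 of the 36 (30.6%), beside 24.7% of all genes. Split by call, it was present in 6 of 23 genes that rose (26.1%), 5 of 9 that fell (55.6%) and 0 of 4 that did not pass. These small counts were not tested. The Syn1 stretch lies at chrX:20921102-20921168 on the minus strand, upstream of the start, and the Unc13a stretch at chr8:71671724-71671753 on the minus strand, just after the start. Capitals mark the matches, which in Unc13a read on the opposite strand, both parts being present with 8 bases between them. The search took exact letters only and set no spacing between the parts. In Syn1 the letters gcggtcag follow the match directly, where ggtcag is close to GGACAG but not identical and was not counted. A match describes the letters and does not show binding.
Syn1: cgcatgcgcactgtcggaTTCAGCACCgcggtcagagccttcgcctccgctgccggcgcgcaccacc
Unc13a: ggcgCTGTCCgcgcccccGGTGCTGAAgcg

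Of 97 further exocytosis genes outside the 49, taken from lists of related families, 96 had a row and 85 passed the filter, of which 22 rose, 29 fell and 34 did not pass, with a median log2 fold change of -0.04. Shares of 25.9% higher and 34.1% lower lie near the 24.8% and 27.3% of all genes tested. Stx16, a syntaxin of the Golgi, had 89.8 ± 0.254 CPM in Phf8 shRNA and 72.6 ± 1.97 CPM in control shRNA libraries (SD, n = 2 each). Vamp5, a VAMP of muscle and other tissues, had 0.549 ± 0.237 CPM in Phf8 shRNA and 2.64 ± 0.0975 CPM in control shRNA libraries, and Snap47 and Stx17 fell 1.33-fold and 1.23-fold. Sec22b, a SNARE between endoplasmic reticulum and Golgi, fell 1.15-fold.

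Among other partners of Rab3 and of the release site, Rph3a (rabphilin, a Rab3 effector) had 36.5 ± 0.166 CPM in Phf8 shRNA and 17.05 ± 0.438 CPM in control shRNA libraries, and Rab3il1, an exchange factor gene, rose 2.48-fold. Ppfia2, a liprin gene, rose 1.82-fold, with 24.5% of its exonic length overlapping a gene on the opposite strand. In contrast to the other 3 Rab3 genes, Rab3d, a form known from exocrine glands, fell 2.46-fold to 2.51 ± 0.0103 CPM in Phf8 shRNA libraries, against 6.18 ± 0.278 CPM in control. Unc13c fell 2.19-fold. In the further C2 domain genes Syt14 rose 1.70-fold, whereas Sytl4 (granuphilin, of dense core granules) fell 2.20-fold and Esyt1, a protein of membrane contact sites, 1.91-fold.

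The machinery that recycles and chaperones SNAREs had 11 genes tested, of which 3 rose, 7 did not pass and 1, Napa, fell 1.16-fold. Among those that rose were Stxbp5l, a tomosyn gene (log2 fold change 0.59), and Stxbp6 (0.25). Of 9 genes of the exocyst, a tether for constitutive exocytosis, 5 fell and 1, Exoc3, rose (1.16-fold), with Exoc6 and Exoc8 down 1.31-fold and 1.26-fold. Of 12 other vesicle membrane and transporter genes tested, 4 rose and 2 fell. The 2 that fell were Slc18a2, the vesicular monoamine transporter gene (1.55-fold lower), and Syngr2 (1.41-fold lower). Among the rises with a mean of at least 1 CPM were Syngr1 (1.26-fold higher) and Scamp5 (1.13-fold higher), and below that level Sypl2, chosen after its values were seen, had 0.786 and 0.708 CPM in Phf8 shRNA and 0.277 and 0.367 CPM in control shRNA libraries (2.32-fold higher, edgeR adjusted p = 0.00177).

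The granins, cargo proteins of dense core vesicles, included 2 falls of over 2-fold among 6 genes tested. Scg3 had 112 ± 7.05 CPM in Phf8 shRNA and 269 ± 5.15 CPM in control shRNA libraries (log2 fold change -1.27 ± 0.06 SE, edgeR adjusted p = 3.31e-107). Vgf, a neuropeptide precursor gene, had 0.378 ± 0.0436 CPM in Phf8 shRNA and 2.24 ± 0.0883 CPM in control shRNA libraries. Chga (chromogranin A) rose 1.55-fold, and the other 3 granin genes did not pass.

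**Figure D4:**
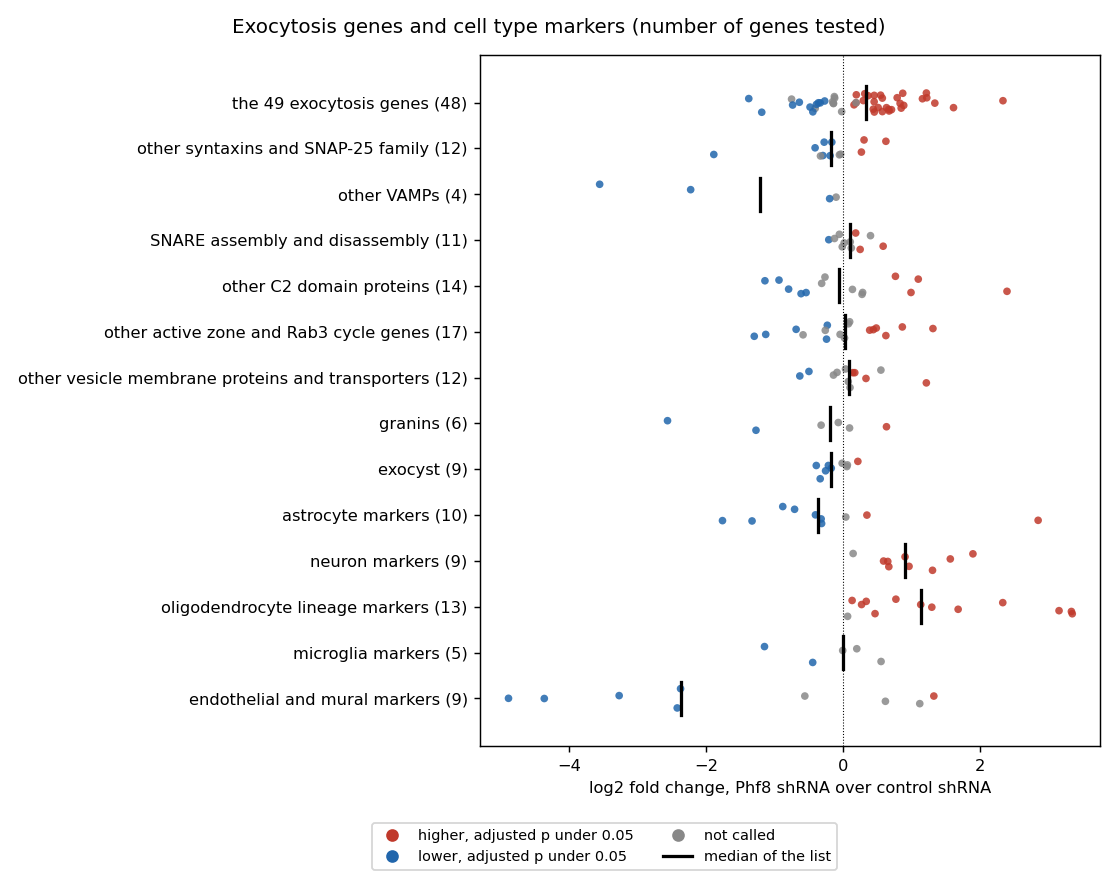
Log2 fold change of Phf8 shRNA over control shRNA for each gene tested, with 1 row per list and a bar at the median, for the exocytosis genes, 8 lists of other exocytosis genes and 5 lists of cell type markers. The medians were 0.34 for the exocytosis genes, -1.21 for the other VAMPs, -0.17 for the exocyst, 0.91 for neuron markers and 1.13 for oligodendrocyte lineage markers. The other VAMPs were only 4 genes, Vamp8 (-3.55), Vamp5 (-2.23), Sec22b (-0.20) and Ykt6 (-0.10). Vamp8, with 4 and 2 reads in Phf8 shRNA libraries, would not have passed the low-count filter on those libraries alone.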

How the data were processed

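Read counts per gene were deposited by the authors as whole numbers, 1 file per library, for 55421 genes. Per the labels' protocols, libraries were stranded and ribosomal RNA-depleted. The submitters' processing notes name HISAT2, HTSeq and DESeq2 with mm10, without versions, and no source used here states the annotation release or strand setting. Symbols, exonic lengths and overlaps came from GENCODE M21, which held 55240 of the identifiers.

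Counts were tested with the quasi-likelihood test of edgeR 4.0.16 (R 4.3.3) on all 4 libraries, without covariates, after filterByExpr and TMM scaling (factors 0.967 and 0.997 in Phf8 shRNA, 1.02 and 1.01 in control shRNA libraries), two-sided, with Benjamini-Hochberg adjustment over all genes tested and a threshold of 0.05. Standard errors were derived from the F statistics. The common biological coefficient of variation was 3.64%, so small differences passed. Replicates differed by more than counting error (chi-square per degree of freedom 2.88 in Phf8 shRNA and 3.18 in control shRNA libraries). Values in each library are given for called genes with an absolute log2 fold change of at least 0.58. Genes outside the 49 are named where called with a mean of at least 1 CPM, at most 2 per list and direction, and some results are not reported here. Members and lists were chosen with earlier results of these data known. Alternatives used DESeq2 1.42.0, limma-voom 3.58.1, other scalings and filters, a replicate block and each library left out.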

Additional observations from a re-analysis of the deposited data

How the results depend on the processing

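Of the 48 exocytosis genes tested, 38 kept their call and direction in each of 13 other ways of fitting, scaling, filtering or leaving out a library that gave them a value, and none of the called genes changed sign. Leaving out each library in turn gave a median log2 fold change of 0.327 to 0.436 for the exocytosis genes. Over all genes tested, the median in these fits ran from 1.01e-04 to 0.0241. With the replicate number as a block (replicate block) 29 exocytosis genes were higher and 10 lower, beside 24.7% and 27.2% of all genes tested. Same-numbered libraries did not deviate together (correlation -0.00102), so the numbers were not taken as pairs. DESeq2 called 23 higher and 10 lower, beside 13.9% and 19.1% of all genes it tested. The library size alone gave 27 and 13, beside 20.6% and 30.5% of all genes tested. An adjusted p under 0.05 together with a change of at least 2-fold left 6 higher and 2 lower, beside 5.5% and 8.71% of all genes tested. A coefficient of variation set to 0.2, chosen after seeing the data, left 10 higher and 2 lower, beside 6% and 9.71% of all genes tested. At under 1 CPM, as for Sv2b, Cadps2 and Syt5, depth limits the precision.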
